A study of Homo sapiens with 2 samples.

Results

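The urokinase plasminogen activator system was described here through 6 genes: the activator genes PLAU and PLAT, the receptor gene PLAUR, the inhibitor genes SERPINE2 and SERPINB2, and C10orf55, which overlaps PLAU on the opposite strand. They were taken by name from the 29452 rows of the deposited table, and each of the 6 names had 1 row. The set was drawn up with the comparison below already known, so the ratios between the libraries are a description and carry no test. RNA was sequenced from MDA-MB-231, an established human breast cancer line of the triple-negative kind, which lacks the oestrogen and progesterone receptors and ERBB2 amplification. One group carried a short hairpin RNA against CDK14 (CDK14-sh), a cyclin-dependent kinase of the cell membrane that acts in Wnt signalling, and the other carried a scramble control. Each group held 1 library, so differences could not be set against a spread between replicates and no p-value was computed. Whether the cells were a pool or 1 clone, and when they were collected, is not given in the sources used here.

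Urokinase, the product of PLAU, is secreted as an inactive single chain and binds the glycolipid-anchored receptor encoded by PLAUR. At the cell surface it cuts plasminogen into plasmin, a broad protease that degrades fibrin and matrix and activates other proteases. Tissue-type activator, the product of PLAT, does the same mainly on fibrin, and serpins trap both activators in complexes that are taken up by receptors of the LRP family. In breast tumours the system is known for its part in invasion.

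The libraries held 15478156 reads assigned to genes in CDK14-sh and 17217564 in scramble cells. Levels are RPKM, reads divided by exon length and by the reads assigned in the library, and intervals in parentheses are 95% exact counting intervals, which leave out all variation between cultures. The target itself, CDK14, had 58 reads (0.548 RPKM) in CDK14-sh and 292 reads (2.48 RPKM) in scramble cells. Of 5 markers expected to be high in this line, VIM, CD44, AXL and MSN stood at 84.8 to 146 RPKM in CDK14-sh and 79.7 to 249 RPKM in scramble cells, while SPARC was at 0.0669 RPKM in CDK14-sh and 0.0481 RPKM in scramble cells. VIM (146 RPKM in CDK14-sh, 249 in scramble cells) and MSN (84.8 RPKM in CDK14-sh, 218 in scramble cells) were themselves lower in CDK14-sh. ESR1, PGR and CDH1, the oestrogen and progesterone receptors and E-cadherin, were at or near 0 in both libraries. The other 2 markers expected to be low were measured above 1 RPKM: EPCAM at 5.46 RPKM in CDK14-sh and 5.33 RPKM in scramble cells, and ERBB2 at 2.96 RPKM in CDK14-sh and 2.33 RPKM in scramble cells. Markers of fibroblasts, leukocytes and endothelium summed to 0.0338, 0.777 and 1.65 RPKM in CDK14-sh and to 0.114, 0.698 and 1.86 RPKM in scramble cells, with DCN, LUM and VWF at 0 in both. Of 4 markers in each list, 4, 2 and 4 had a row, and KDR, at 1.42 RPKM in each library, made up most of the endothelial sum. These are bulk libraries, so a change in the number of cells making a transcript and a change in RNA per cell cannot be told apart.

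PLAU was the most abundant of the 6 genes in both libraries and was higher in CDK14-sh. It stood at 119.6 RPKM (116 to 123) in CDK14-sh, from 5459 reads, and at 46.8 RPKM (44.9 to 48.7) in scramble cells, from 2376 reads. The ratio was 2.56-fold (2.44 to 2.68). In CDK14-sh 312 rows of the table had a higher RPKM than PLAU, against 956 rows in scramble cells. Among the 9518 protein-coding rows with at least 100 reads in each library, 13 had a larger ratio than PLAU. The overlapping row C10orf55 is among those 13. PLAU (ENSG00000122861.15) lies on the plus strand of chromosome 10, from 73909177 to 73917497 in GRCh38, and its row covers 2950 exon bases in 13 separate blocks.

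C10orf55 stood at 42.7 RPKM (40.7 to 44.8) in CDK14-sh and 16.0 RPKM (14.9 to 17.3) in scramble cells. That is a ratio of 2.66-fold (2.44 to 2.91), and the interval covers that of PLAU. C10orf55 (ENSG00000222047.8) lies on the minus strand of chromosome 10 from 73909969 to 73922777. GENCODE v29 lists it as protein-coding with 1 antisense transcript among its 2, and RefSeq lists it as a long noncoding RNA; its function is not described here. Its row covers 2514 exon bases, and 916 of them in 7 blocks, or 36.4%, are also exon bases of PLAU, where they make up 31.1%. The largest shared block runs from 73911525 to 73911925, over 401 bases.

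**Figure D1:**
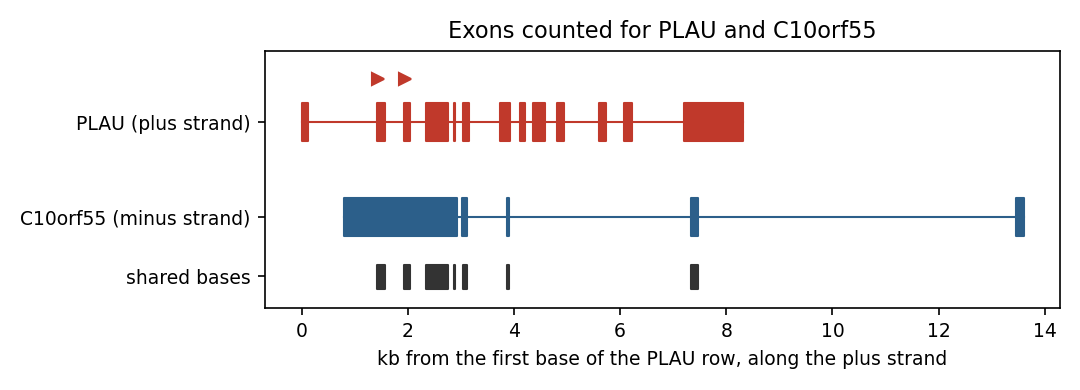
Exons counted for PLAU (red, plus strand) and C10orf55 (blue, minus strand) and the bases both rows share (black), in kb from the first base of the PLAU row. Boxes are exon blocks merged over transcripts, lines join them, and red arrowheads mark the 2 PLAU start sites of the RefSeq windows, both within the largest C10orf55 exon.

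The reads in the C10orf55 row were close in number to those the shared bases would hold at the mean depth of the PLAU row. That number takes depth as even along the PLAU row, which row totals cannot show. A further 1598 bases of the C10orf55 row lie outside the PLAU exons, and the source of its reads was not tested. At the mean depth of the PLAU row, 916 bases would hold 1695 reads in CDK14-sh and 738 reads in scramble cells. The C10orf55 row held 1661 reads in CDK14-sh, 98.0% of that number, and 694 reads in scramble cells, 94.1% of it. The RPKM of C10orf55 was 0.357 (0.338 to 0.377) times that of PLAU in CDK14-sh and 0.343 (0.314 to 0.373) times in scramble cells. Rows lying wholly within the exons of another row were also measured over the whole table. C10orf55 is not among these, since only 36.4% of its bases are shared with PLAU. Of 290 rows of at least 200 bases that lie wholly within the exons of a row on the opposite strand with at least 100 reads in each library, 286 (98.6%) had reads. The median read depth over the 290 was 121% of that of the surrounding row, with quartiles of 54.9% and 214%. For 113 such rows on the same strand, all with reads, it was 82.0%, with quartiles of 16.8% and 187%. The libraries came from a stranded kit, and with row totals alone the reads of PLAU and C10orf55 cannot be told apart.

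The next sequences show the overlap base by base: 30 bases of a block that is exon in both rows, from 73913043 to 73913072 on chromosome 10 (GRCh38, GENCODE v29 transcripts), each 5′ to 3′ in its own transcript. Each is the reverse complement of the other, so a read from this stretch fits both rows unless strand is used.
PLAU, plus strand: catgcccacagatctgatgctcttcagctg
C10orf55, minus strand: cagctgaagagcatcagatctgtgggcatg

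Both RefSeq promoter windows of PLAU, 250 bases before to 50 after a start site, lie inside the largest exon of C10orf55, which runs from 73909969 to 73912095 over 2127 bases. All 300 bases of each window are therefore exon bases of C10orf55 (RefSeq, GRCh38.p14, plus strand). Only the end of each window is also PLAU exon, from 73910605 in the first and from 73911104 in the second. The bases before those positions in each window are exon bases of C10orf55 and not of PLAU. Neither window holds any of 4 motifs searched on both strands, the AP-1, TCF/LEF and NF-kB motifs and the TATA box, so no base is in capitals.
PLAU, chr10:73910360-73910659: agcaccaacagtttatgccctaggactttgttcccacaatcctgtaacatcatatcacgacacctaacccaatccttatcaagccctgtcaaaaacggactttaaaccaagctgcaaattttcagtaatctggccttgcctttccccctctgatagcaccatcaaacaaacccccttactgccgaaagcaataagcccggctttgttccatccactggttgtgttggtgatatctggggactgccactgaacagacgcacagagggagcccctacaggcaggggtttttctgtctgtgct
PLAU, chr10:73910882-73911181: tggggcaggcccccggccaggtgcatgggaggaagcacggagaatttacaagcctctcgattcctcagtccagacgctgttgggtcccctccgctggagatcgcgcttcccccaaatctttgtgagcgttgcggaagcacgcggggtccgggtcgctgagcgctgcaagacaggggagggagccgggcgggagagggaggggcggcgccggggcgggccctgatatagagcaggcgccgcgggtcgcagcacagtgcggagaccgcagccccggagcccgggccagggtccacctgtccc

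PLAUR, the receptor gene, was higher in CDK14-sh by less than 2-fold. It stood at 38.4 RPKM (36.9 to 39.8) in CDK14-sh, from 2646 reads, and at 27.0 RPKM (25.8 to 28.2) in scramble cells, from 2071 reads. The ratio was 1.42-fold (1.34 to 1.51), and 663 of the 9518 protein-coding rows with at least 100 reads in each library had a larger one. The PLAUR row, on chromosome 19 from 43646095 to 43670547 on the minus strand (ENSG00000011422.11), shares no exon base with another row. Receptor and ligand were thus both higher in CDK14-sh, by unequal amounts: there were 3.12 (2.98 to 3.27) RPKM of PLAU per RPKM of PLAUR in CDK14-sh and 1.73 (1.63 to 1.84) in scramble cells.

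SERPINB2, encoding the inhibitor known as PAI-2, was low in both libraries. It had 28 reads (0.658 RPKM, 0.437 to 0.951) in CDK14-sh and 21 reads (0.444 RPKM, 0.275 to 0.678) in scramble cells. The intervals overlap, and the ratio of 1.48-fold had an interval of 0.812 to 2.75, so neither a difference nor its direction was detectable at this depth. The row (ENSG00000197632.8), on the plus strand of chromosome 18 from 63871692 to 63903890, shares 547 of its 2748 bases with SERPINB10, a neighbouring serpin gene on the same strand. SERPINB10 had 19 reads in CDK14-sh and 7 in scramble cells, and reads of the shared bases cannot be assigned to either gene.

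RefSeq windows of 4 of the 6 members were searched, and those of PLAUR and SERPINB2 are shown because they held a motif. PLAT and C10orf55 were not among the members searched, so whether their promoters hold a motif was not tested. Capitals mark AP-1 (TGANTCA), present on both strands at once since the motif is a palindrome apart from its middle base, and the TATA box (TATAAA). The AP-1 motif begins 186 bases before the start site of PLAUR and 102 bases before that of SERPINB2, whose TATA box begins 30 bases before the start, and the motifs do not overlap. Of all 35116 RefSeq windows, 7.71% hold the AP-1 motif, 11.5% the TATA box, 5.91% the NF-kB consensus and 2.62% the TCF/LEF motif, searched as CTTTGAT. The matches describe these letters and not binding, and the 2 windows of SERPINE2 held none of the motifs.
PLAUR, chr19:43670120-43670419, minus strand: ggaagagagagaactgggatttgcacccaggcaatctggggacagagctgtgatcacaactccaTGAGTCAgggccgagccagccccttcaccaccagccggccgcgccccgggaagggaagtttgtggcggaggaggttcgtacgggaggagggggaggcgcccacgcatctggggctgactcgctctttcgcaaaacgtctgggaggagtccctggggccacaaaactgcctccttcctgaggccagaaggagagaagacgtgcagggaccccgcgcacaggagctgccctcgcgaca
SERPINB2, chr18:63887455-63887754, plus strand: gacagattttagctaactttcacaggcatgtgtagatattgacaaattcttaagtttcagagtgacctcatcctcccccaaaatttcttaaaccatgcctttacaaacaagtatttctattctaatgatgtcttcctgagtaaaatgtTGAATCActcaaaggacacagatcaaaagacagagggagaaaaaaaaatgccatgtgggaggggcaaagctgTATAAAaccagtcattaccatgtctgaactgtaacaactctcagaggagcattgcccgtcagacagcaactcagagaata

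SERPINE2 encodes protease nexin-1, a serpin that inhibits urokinase, tissue-type activator and thrombin. It stood at 3.83 RPKM (3.51 to 4.17) in CDK14-sh, from 527 reads, and at 3.50 RPKM (3.21 to 3.81) in scramble cells, from 536 reads. The intervals overlap and the ratio of 1.09-fold (0.968 to 1.24) spans 1, so no difference was detectable at this depth. After rescaling each library to the same sum of RPKM (TPM) its log2 ratio was -0.02, against 0.13 in RPKM. The row lies on chromosome 2 from 223975112 to 224039319 on the minus strand (ENSG00000135919.12). PLAU exceeded SERPINE2 by 31.2-fold (28.5 to 34.2) in CDK14-sh and by 13.4-fold (12.2 to 14.7) in scramble cells.

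PLAT, the gene of the other activator, went the opposite way from PLAU by a small amount. It stood at 19.6 RPKM (18.8 to 20.5) in CDK14-sh, from 2010 reads, and at 21.7 RPKM (20.8 to 22.6) in scramble cells, from 2472 reads, which is 1.11-fold lower (1.04 to 1.17) in CDK14-sh. Its counting intervals do not overlap, but 31.3% of the 14878 rows reaching 1 RPKM in either library had a lower log2 ratio than PLAT. PLAT lies on the minus strand of chromosome 8 from 42175233 to 42207724 (ENSG00000104368.17) and shares no exon base with another row. The balance of the activator transcripts differed between the libraries: PLAU stood at 6.09 times the RPKM of PLAT (5.79 to 6.42) in CDK14-sh and at 2.16 times (2.04 to 2.28) in scramble cells.

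**Figure D2:**
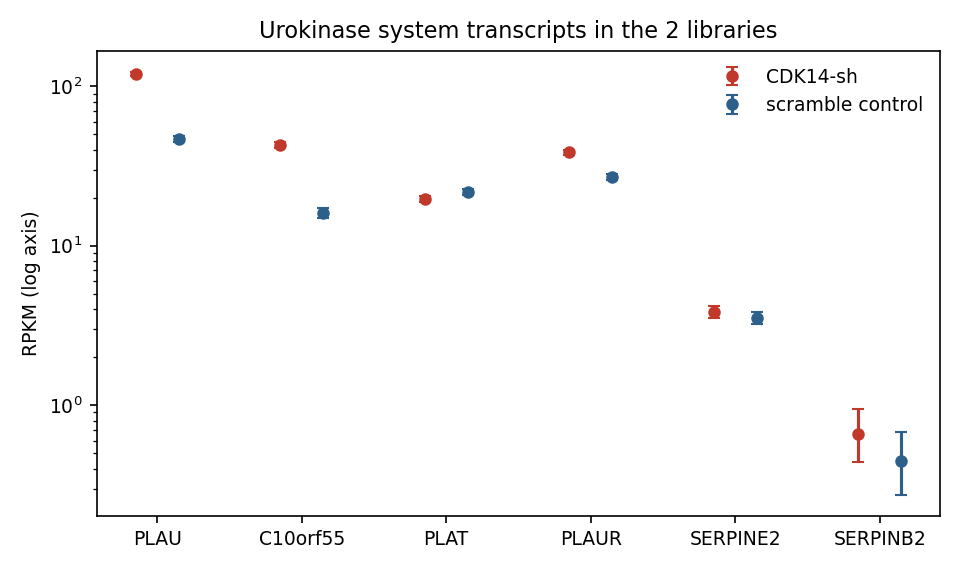
RPKM of the 6 genes (log axis) in CDK14-sh (red, left of each pair) and the scramble control (blue, right). Points are single libraries and bars are 95% counting intervals. PLAU, C10orf55 and PLAUR are higher in CDK14-sh with intervals that do not overlap, PLAT is lower, and the intervals of SERPINE2 and SERPINB2 overlap between the libraries.

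In order of RPKM, the genes ran PLAU, C10orf55, PLAUR, PLAT, SERPINE2 and SERPINB2 in CDK14-sh. The order in scramble cells was PLAU, PLAUR, PLAT, C10orf55, SERPINE2 and SERPINB2, so C10orf55 alone changed place relative to the others. No counting interval overlapped that of its neighbour in either order, but the spread between cultures is unknown, so the order beyond these 2 libraries is too. PLAU made up 65.7% of the summed RPKM of the 5 genes other than C10orf55 in CDK14-sh and 47.1% in scramble cells. PLAUR made up 21.1% in CDK14-sh and 27.1% in scramble cells. PLAT made up 10.8% in CDK14-sh and 21.8% in scramble cells.

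Rows reaching 1 RPKM in either library were called higher or lower where they differed by 2-fold or more on the log2 scale, after 0.1 RPKM was added to both levels, which understates the change of low genes. SERPINB2 did not reach that level and the other 5 genes did. PLAU and C10orf55, which share exon bases, were the 2 rows counted as higher, with log2 ratios of 1.35 and 1.41, and 0 were counted as lower. PLAUR (0.51), SERPINE2 (0.13) and PLAT (-0.14) stayed within 2-fold. Over all 14878 rows at that level, 478 (3.21%) were higher and 516 (3.47%) lower. Over the 10421 protein-coding rows 109 (1.05%) were higher and 226 (2.17%) lower. In TPM 609 rows of any type were higher and 1128 lower, among rows reaching 1 TPM, which are not the same 14878 rows. The members were chosen from this contrast, so nothing is read from their count beside these shares.

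**Figure D3:**
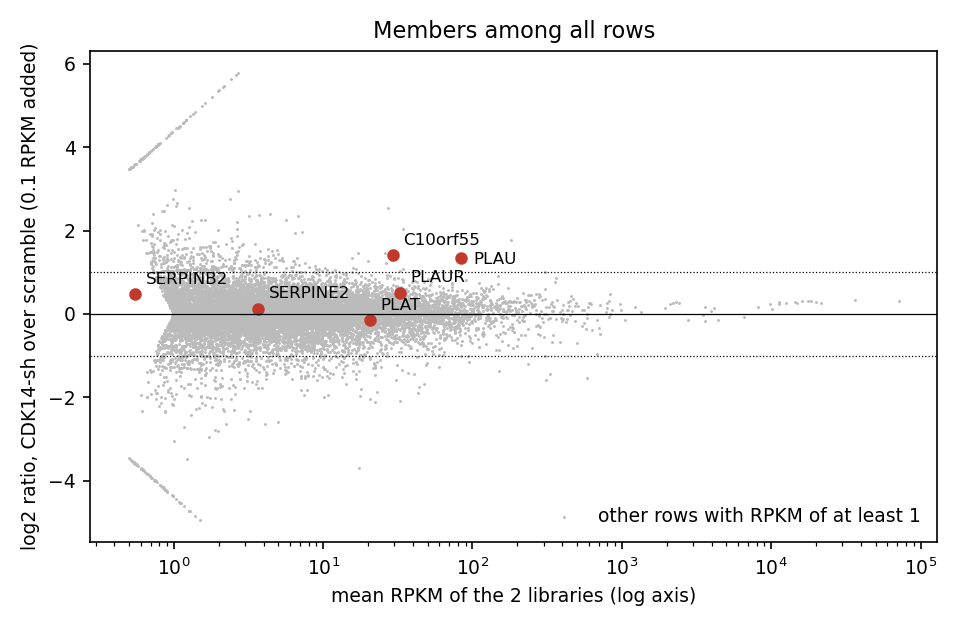
Log2 ratio of CDK14-sh over the scramble control, after adding 0.1 RPKM to each, against mean RPKM of the 2 libraries (log axis). Grey points are rows reaching 1 RPKM in either library, red points the 6 genes, and dotted lines 2-fold. PLAU (1.35) and C10orf55 (1.41) lie above the upper dotted line, and the other 4 lie between the lines.

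The 3 rows nearest to PLAU in ratio, among 5269 rows with at least 100 reads in each library and no exon shared with another row, were CLIC6, B3GALNT2 and FURIN. CLIC6, a member of the chloride intracellular channel family, was 2.57-fold higher (2.12 to 3.14). B3GALNT2, a glycosyltransferase of the endoplasmic reticulum, was 2.52-fold higher (2.19 to 2.90). FURIN, a proprotein convertase, was 2.50-fold higher (2.14 to 2.93). With 2 libraries likeness is 1 ratio per gene and says nothing more.

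Other genes of plasminogen activation, grouped by role, mostly stayed within 2-fold. Some genes are in more than 1 list and are counted once here. Of 84 listed genes other than the members, 69 had a row and 41 reached 1 RPKM, of which 1 was counted as higher and 1 as lower. Their median log2 ratio was -0.10, with 16 above 0 and 25 below, beside a median of 0.04 over all 14878 rows. TPM lowers every ratio of levels, before 0.1 is added, by 0.15 on the log2 scale. Of the 41 genes, 20 share exon bases with another row, which is said beside those named.

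Of 14 surface partners of the urokinase receptor, 13 had a row and 8 reached 1 RPKM, with 0 higher, 1 lower and a median of -0.04. ITGB1, the integrin beta 1 chain through which the receptor signals, was at 142 RPKM in CDK14-sh and 329 RPKM in scramble cells, 2.31-fold lower (2.27 to 2.36). Its row shares exon bases with another. CAV1, encoding caveolin-1, was 1.81-fold lower (1.72 to 1.90) and met the 2-fold limit in TPM, and ITGA3, an alpha chain that pairs with ITGB1, was 1.57-fold lower (1.52 to 1.63). SRPX2, a secreted ligand of the receptor, had the largest ratio in the other direction, 1.46-fold higher (1.20 to 1.79). Vitronectin (VTN), the matrix ligand of the receptor, had 0 reads in CDK14-sh and 2 in scramble cells, in a row that shares exon bases with another.

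Of the 8 receptors and chaperones tied to clearance, 6 reached 1 RPKM, with 1 higher, 0 lower and a median of 0.09, or -0.06 in TPM. The row counted as higher was M6PR, 46.8 RPKM (45.1 to 48.6) in CDK14-sh and 22.0 RPKM (20.8 to 23.1) in scramble cells, or 2.13-fold, and in TPM it was 1.92-fold and no longer counted. M6PR encodes a mannose 6-phosphate receptor that sorts lysosomal enzymes and is not known as a receptor for activator complexes, and its row shares exon bases with another. LRP1, the main endocytic receptor for such complexes, was at 1.38 RPKM in CDK14-sh and 2.57 RPKM in scramble cells, 1.86-fold lower (1.66 to 2.09) and 2.02-fold lower in TPM. Its row shares exon bases with another as well. IGF2R, which also binds the urokinase receptor, was the most abundant of the others, at 11.7 RPKM in CDK14-sh and 12.3 RPKM in scramble cells.

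All 9 listed proteins that can bind plasminogen at the cell surface had log2 ratios below 0, with a median of -0.20 and none past 2-fold. The median over all rows reaching 1 RPKM was 0.04. The share of all rows below 0 was not taken, so nothing is read from the common direction. ANXA2 and S100A10, which form the annexin A2 complex that binds plasminogen, were 1.13-fold (1.10 to 1.16) and 1.15-fold (1.06 to 1.24) lower. ANXA1 had the largest ratio, 1.40-fold lower (1.34 to 1.46). The list holds ACTB and GAPDH, at 1.16-fold and 1.06-fold lower, whose main roles are in the cytoplasm, and the GAPDH row shares exon bases with another. Of 8 proteases that can activate pro-urokinase, 4 had a row, and the lysosomal cathepsins CTSB and CTSL reached 1 RPKM. CTSB, which is also in the list of plasminogen binding proteins, was 1.35-fold lower (1.28 to 1.41), and CTSL was 1.03-fold lower (0.983 to 1.08). ST14, encoding matriptase, had 3 reads in CDK14-sh and 7 in scramble cells.

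Plasma kallikrein and factor XII, further activators, were below 1 RPKM in both libraries: KLKB1 had 44 reads in CDK14-sh and 33 in scramble cells, and F12 had 6 in each. Both rows share exon bases with another. Of 6 further serpins that can inhibit activators or plasmin, 3 reached 1 RPKM, with a median of -0.20 and none past 2-fold. SERPINB6 was the most abundant, at 18.8 RPKM in CDK14-sh and 15.8 RPKM in scramble cells, 1.19-fold higher (1.10 to 1.28). SERPINI1, encoding neuroserpin, an inhibitor of tissue-type activator, was 1.39-fold lower (1.14 to 1.72).

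Among 16 substrates and growth factors acted on by plasmin or urokinase, 14 had a row and 8 reached 1 RPKM. The median of the 8 was 0.13, or -0.02 for the same genes in TPM, and none was past 2-fold. THBS1, encoding thrombospondin-1, was at 164 RPKM in CDK14-sh and 104 RPKM in scramble cells, 1.58-fold higher (1.55 to 1.61). MMP1, whose collagenase pro-form plasmin can activate, was at 965 RPKM in CDK14-sh and 689 RPKM in scramble cells, 1.40-fold higher (1.38 to 1.42). The rows of THBS1 and MMP1 share exon bases with another. FN1, encoding fibronectin, was 1.28-fold lower (1.22 to 1.33).

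Among relatives of the receptor and of SERPINB2, no row reaching 1 RPKM was past 2-fold. Of 10 genes with the Ly6 fold of PLAUR, 8 had a row and 4 reached 1 RPKM, with a median of 0.03. In TPM the median of the same 4 was -0.12, and with LY6K, which also reached 1 in TPM, it was -0.25. LYPD1 was 1.57-fold higher (1.36 to 1.81) and LY6E 1.15-fold lower (0.983 to 1.34), while CD59, a complement inhibitor, was the most abundant at 43.1 RPKM in CDK14-sh and 38.3 RPKM in scramble cells. The rows of LYPD1, LY6E, LY6K and CD59 share exon bases with another. Of 12 clade B serpins other than SERPINB2, 8 had a row and 4 reached 1 RPKM, with a median of 0.03, or -0.13 in TPM. Of those 4, SERPINB6 and SERPINB8 are also in the list of inhibitors of activators or plasmin. SERPINB9, an inhibitor of granzyme B, was 1.61-fold higher (1.42 to 1.83), and SERPINB1, an inhibitor of neutrophil elastase, was 1.31-fold lower (1.15 to 1.49).

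**Figure D4:**
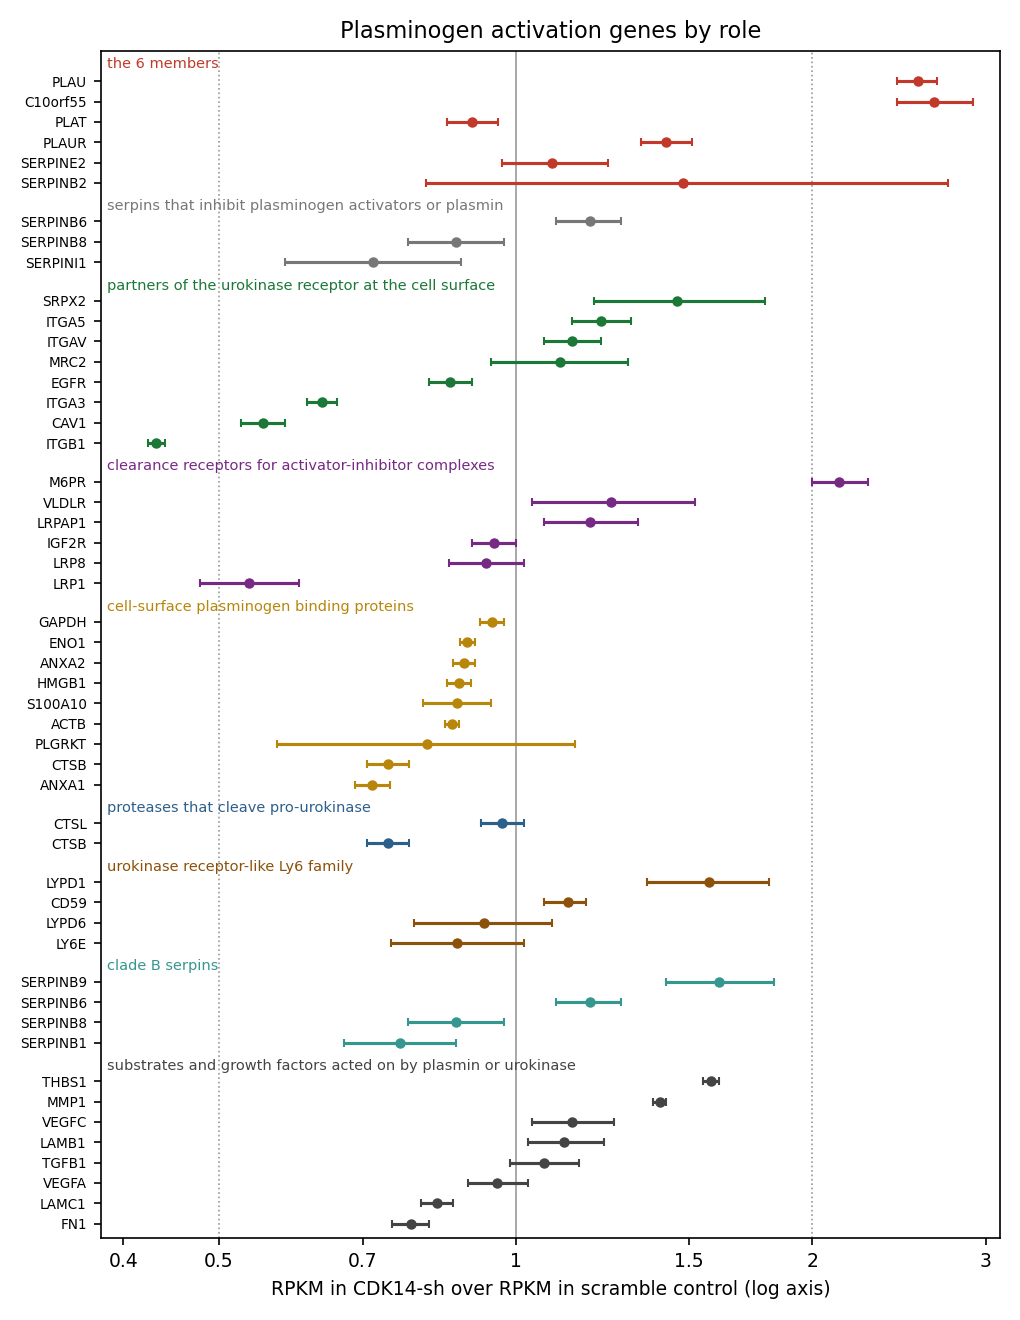
Ratio of RPKM in CDK14-sh over the scramble control (log axis) for the 6 genes and for listed genes reaching 1 RPKM in either library, by role. Points are ratios of single libraries, bars 95% exact counting intervals, and dotted lines 2-fold. PLAU (2.56), C10orf55 (2.66) and M6PR (2.13) lie right of the upper dotted line and ITGB1 (2.31-fold lower) left of the lower one.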

How the data were processed

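Per the file headers, the authors deposited 1 table with the RPKM of every row in 2 libraries, beside its exon positions, strand and length. Bowtie 0.12.2, Subread 1.5.1, featureCounts, GRCh38 and mm8 are named in the submitters' processing notes, without roles. Settings for strand, overlapping rows and multi-mapping reads: not given in the sources used here. Coordinates of the 6 genes equal those of GENCODE v29 on GRCh38.

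Values multiplied by length fell on whole steps in 100.0% of nonzero cases, within 0.01 read, so reads were recovered for counting intervals (Clopper-Pearson for ratios, exact Poisson for levels). Duplicate reads are not independent molecules, so intervals cover counting error only. No test was made, since each group is 1 library. The ratio and interval code was tested on simulated data. Members, lists and the rule for named genes (within a role, those past 2-fold or else the largest ratio in each direction, and the most abundant receptors and inhibitors) were chosen with earlier results of these data known. Outside that rule, CAV1, ITGA3, SRPX2, VTN, LRP1, IGF2R, ANXA2, S100A10, ACTB, GAPDH, CTSL, ST14, KLKB1, F12, LY6K and MMP1 were named after their values were seen. 1 further gene of the lists is not reported here. Promoter windows came from RefSeq. Alternatives covered pseudocount, level filter, scaling, fold and overlapping rows. The tools were numpy 2.4.6, scipy 1.17.1, pandas 2.3.3 and matplotlib 3.10.9 under Python 3.11.15.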

Additional observations from a re-analysis of the deposited data

How the results depend on the processing

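No paired analysis was possible because there is 1 library in each group. PLAU and C10orf55 were the 2 members counted as higher, and 0 were lower, under each of the 7 alternatives run for that count: 1 RPKM added, TPM, median centring, mitochondrial reads left out, no level filter, at least 5 RPKM, and 1.5-fold. In TPM, which shifts every ratio, the log2 ratios were 1.20 for PLAU, -0.30 for PLAT, 0.35 for PLAUR and 1.26 for C10orf55, outside their counting intervals. With reads of the PLAU and C10orf55 rows summed over the union of their exons the log2 ratio was 1.37. SERPINE2 was at -0.02 in TPM.

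Counts over all rows moved with the rule. With 1 RPKM added, 176 rows were higher and 259 lower. Without a level filter the counts were 2173 and 2043, from 5 RPKM up they were 83 and 177, and a limit of 1.5-fold gave 1355 and 1421. They numbered 307 and 315 over rows sharing no exon base, where fewer rows enter, and 205 and 329 with at least 30 reads in place of the level filter, a setting chosen after seeing the data. TPM gave 609 and 1128, over the rows reaching 1 TPM. Listed genes numbered 3 higher and 2 lower with no filter, and 0 higher and 3 lower in TPM, where CAV1 and LRP1 passed 2-fold and M6PR did not. With no filter the medians were -0.27 for receptor partners, 0.35 for clade B serpins and -0.14 for the Ly6 family, over more genes. Depth limits SERPINB2 and every gene under about 30 reads.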

Other observations

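Some relatives of the members lay under 1 RPKM in both libraries and were counted in no comparison. LYPD3, a receptor of the Ly6 fold, had 4 reads in CDK14-sh and 17 in scramble cells. SERPINB7, a neighbour of SERPINB2 in the clade B family, had 19 reads in CDK14-sh and 9 in scramble cells. SERPINF2, encoding the plasmin inhibitor alpha-2-antiplasmin, had 6 reads in CDK14-sh and 0 in scramble cells. ITGB3, a partner chain of the vitronectin receptor, had 10 reads in CDK14-sh and 27 in scramble cells, in a row that shares exon bases with another. These 4 genes were named after their values were seen.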
